A study of Mus musculus with 6 samples.

Results

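Chromatin of pre-B cells was examined at 10 genes that define T cells, namely Cd3d, Cd3e, Cd3g, Cd4, Cd8a, Lck, Zap70, Tcf7, Gata3 and Bcl11b, out of 22372 protein-coding genes of the GENCODE M1 annotation of mm9. The genes were taken by name and not by a threshold on any measured value, and each was taken with its gene body and 10 kb on each side. The study compared epigenetic marks and factor binding with the rearrangement of Vκ genes in B cell precursors, and its pre-B lists cover the whole genome. The cells came from C57BL/6 mice of both sexes, 6 to 14 wk of age, that were RAG-/- µ+, so they could not rearrange their own antigen receptor genes and instead carried a heavy chain transgene that was already rearranged. All libraries share this deletion and this transgene. The paper's methods list Rag1-/- mice with a human heavy chain transgene among its animals, without stating that the ChIP-seq cells came from them. Mice without RAG make no mature T cells. H3K27ac, H3K4me3 and Pax5 were each profiled by ChIP-seq in 1 library. There is therefore no replicate for any value, no test was made, and the input libraries were not analysed here. How many animals were pooled for a library is not given in the sources used here.

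T cells arise from progenitors in the thymus, where Notch signalling induces Tcf7, Gata3 and Bcl11b, the transcription factors that set up the lineage. The CD3 chains carry the signal of the T cell receptor into the cell, CD4 and CD8 are its co-receptors, and Lck and Zap70 are the kinases that act first when it is engaged. In B cell precursors Pax5 holds the B lineage in place, both by activating B cell genes and by repressing genes of other lineages. H3K27ac marks active promoters and enhancers and H3K4me3 marks promoters, including some that are not transcribed. Neither mark measures expression, and a gene without a mark is described here as unmarked and not as silent.

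The H3K27ac list held 69345 peaks, the Pax5 list held 15445 peaks, and the H3K4me3 list held 782636 bins of 25 bp, which were joined across gaps of up to 100 bp into 17979 regions. The lists carry no read counts, so their depth is unknown. A peak's score is the peak caller's own number on a scale that the lists do not name, and scores are compared only within a list. As a check of the labelled cell type, H3K27ac and Pax5 lay within 1000 bp of a start in 10 of 10 genes of the B lineage (among them Cd79a, Cd79b, Blnk, Vpreb1, Pax5 and Ebf1), and H3K4me3 in 8 of them. Of 12 myeloid genes, 10 had H3K27ac at a start, 7 had H3K4me3 and 2 had Pax5. Over all protein-coding genes these shares were 48.3%, 52.6% and 37.4%, so H3K27ac at a start was above the share of all genes in both lists (83.3% of the myeloid genes) and did not set the B lineage genes apart, whereas Pax5 was at 16.7% of the myeloid genes. The highest H3K27ac scores at the starts of the myeloid genes ran from 4.60 to 149. The score of 149 was at Csf2ra, and the next highest was 19.8 at Cebpe. Those of the B lineage genes ran from 19.8 to 101, the latter at Cd79a. The 2 myeloid genes with Pax5 at a start were Csf2ra, with a score of 3136, and Fcgr3, with 264. The highest Pax5 score at a start of a B lineage gene was lower than that of Csf2ra, 679 at Blnk. The score at Csf2ra was close to the highest of the whole Pax5 list, 3214, and how reads mapped there was not examined. Whether cells of another lineage in the sample had a part in any result below was not tested.

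The 10 genes fell into 4 classes by where the marks lay. Lck, Tcf7 and Gata3 had a histone mark within 1000 bp of the start of a protein-coding transcript. Cd3d, Cd4, Zap70 and Bcl11b had peaks or regions of their own, in the gene body or nearest to their own start, but none of a histone mark at a start. Cd3g had only those of neighbouring genes, and Cd3e and Cd8a had none of any list. The map of peaks along the 10 genes shows this division.

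**Figure D1:**
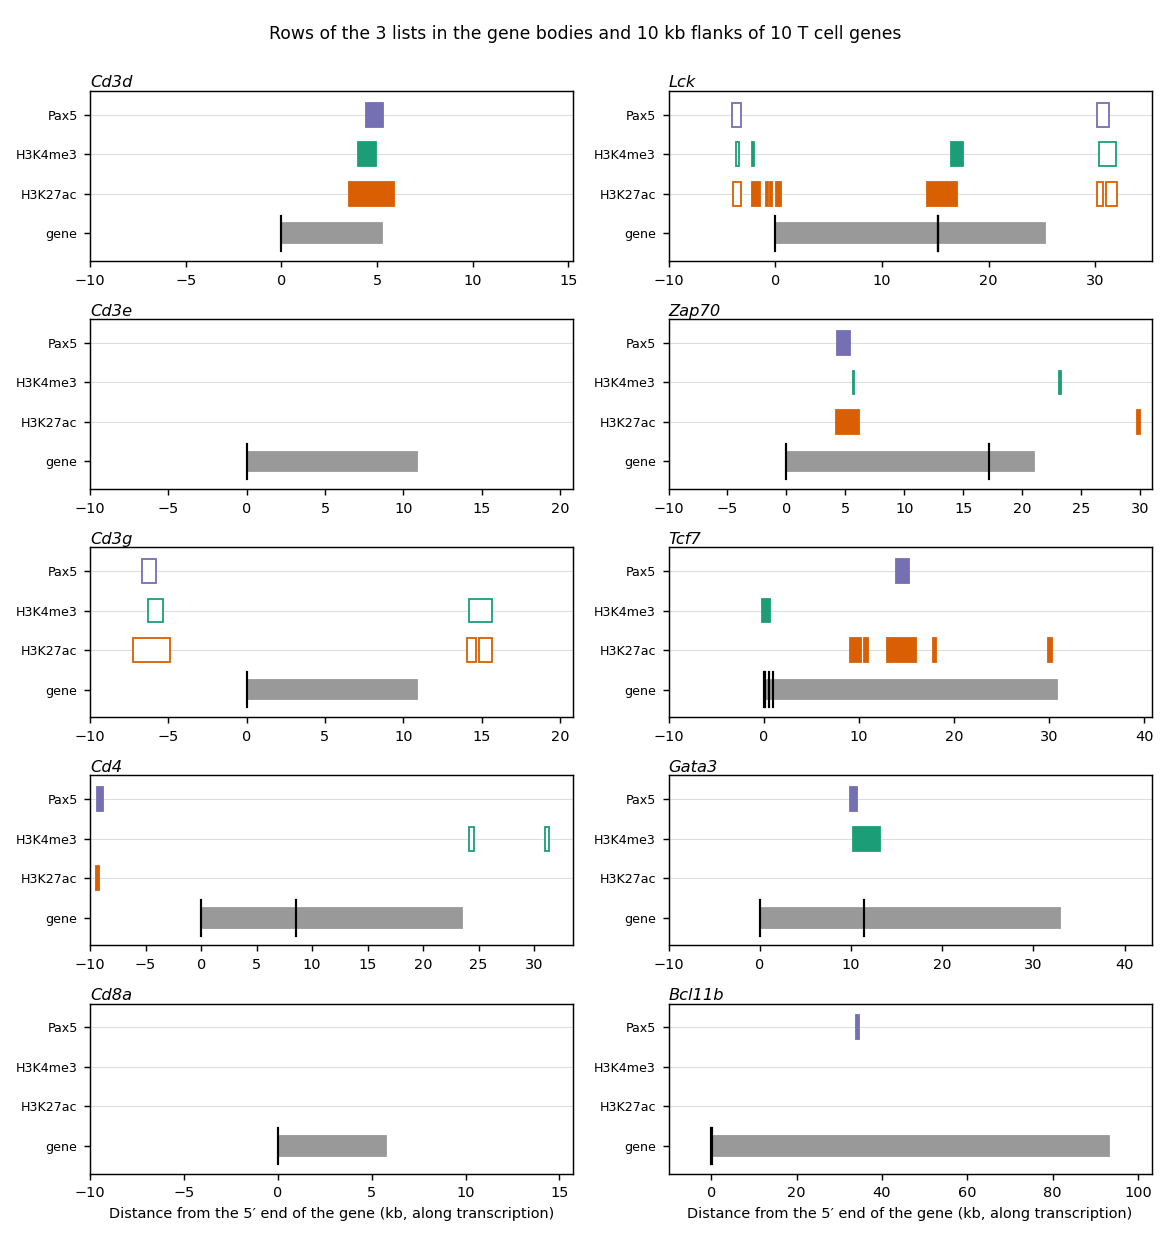
Peaks of H3K27ac and Pax5 and regions of H3K4me3 in the gene body and 10 kb on each side of 10 T cell genes, against the distance in kb from the 5′ end of the gene along transcription. Grey bars are gene bodies, black ticks are starts of protein-coding transcripts, and filled boxes belong to the gene while open boxes lie nearest to the start of a neighbour. Cd3e and Cd8a are empty, and Bcl11b holds 1 Pax5 peak.

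The sequences just upstream of a start with H3K4me3 (Tcf7 and Gata3), of a start with H3K27ac and no H3K4me3 (Lck), and of starts with neither (Cd3e and Cd8a) are shown as examples, 1 start a gene. Each line gives the 120 bases before the start in the direction of transcription, 5′ to 3′, from mm9, with every CG pair in capitals. In these bases Tcf7 had 23 CG pairs, Gata3 had 9, Cd3e had 3, Lck had 2 and Cd8a had 0. The other 3 Tcf7 starts, also with H3K4me3 within 1000 bp, had 13, 8 and 1, and the starts of the 10 genes without H3K4me3 had from 0 to 5, so the counts of marked and unmarked starts overlapped.
Tcf7, chr11:52096682-52096801, minus strand: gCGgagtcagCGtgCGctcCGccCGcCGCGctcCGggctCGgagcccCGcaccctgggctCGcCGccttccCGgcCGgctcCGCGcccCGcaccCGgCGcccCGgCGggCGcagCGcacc
Gata3, chr2:9800228-9800347, minus strand: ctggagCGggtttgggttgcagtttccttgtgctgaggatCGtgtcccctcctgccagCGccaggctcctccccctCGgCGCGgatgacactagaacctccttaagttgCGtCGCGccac
Lck, chr4:129235636-129235755, minus strand: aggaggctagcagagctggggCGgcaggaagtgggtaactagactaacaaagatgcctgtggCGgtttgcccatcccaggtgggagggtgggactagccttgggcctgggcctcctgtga
Cd3e, chr9:44817674-44817793, minus strand: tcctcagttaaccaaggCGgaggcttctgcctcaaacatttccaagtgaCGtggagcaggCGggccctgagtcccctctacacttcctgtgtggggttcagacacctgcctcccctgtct
Cd8a, chr6:71323301-71323420, plus strand: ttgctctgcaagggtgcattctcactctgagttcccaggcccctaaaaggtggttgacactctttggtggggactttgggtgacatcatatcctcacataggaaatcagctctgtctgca

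Within the window of gene body and 10 kb flanks, neighbours included, the counts for H3K27ac and H3K4me3 were near the shares of all genes. A Pax5 peak lay in the window of 8 of 10 genes (51.9% of all protein-coding genes had one), an H3K4me3 region in 7 (61.4% of all) and an H3K27ac peak in 6 (63.1% of all). Cd3e and Cd8a were the 2 of 10 genes without anything, against 31.3% of all genes. These counts depend on neighbours, since 6 genes had a Pax5 peak, 5 an H3K27ac peak and 5 an H3K4me3 region of their own. The shares of all genes with a peak or region of their own were not counted. The window counts also depend on the length of the window. It ran from 25260 bp at Cd3d to 113200 bp at Bcl11b, with a median of 35415 bp over all genes. At the starts, H3K27ac lay within 1000 bp of a start in 1 of 10 genes (48.3% of all), H3K4me3 in 2 (52.6% of all) and Pax5 in 1 (37.4% of all), and 7 had no histone mark there (44.4% of all). With 10 genes and 1 library a list, no difference between these shares was tested.

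**Figure D2:**
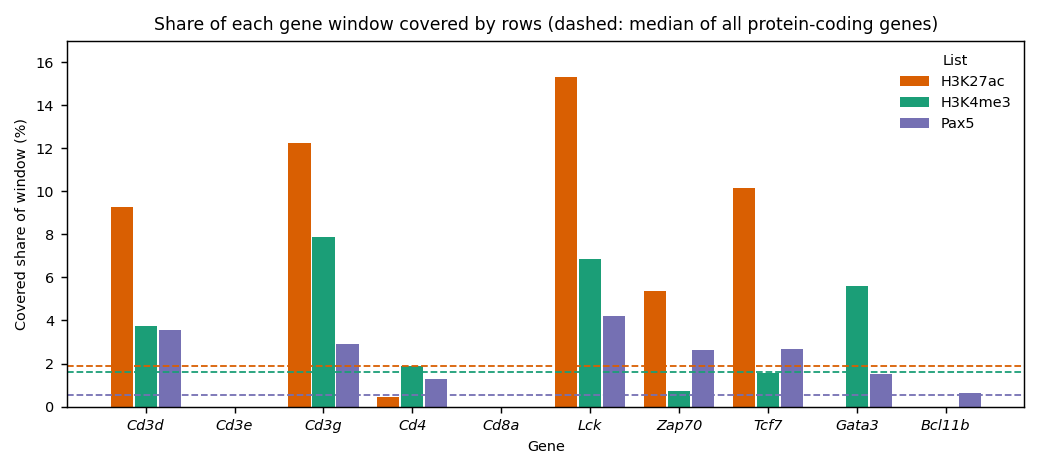
Percent of each gene's window (gene body and 10 kb on each side) covered by H3K27ac peaks, H3K4me3 regions and Pax5 peaks, with dashed lines at the median of all protein-coding genes. Lck has the highest H3K27ac bar at 15.3%, part of it from neighbours, Cd3g owes its 12.2% to neighbours, and Cd3e and Cd8a are at 0.

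By the share of the window that H3K27ac covered, peaks of neighbours included, Lck came first with 15.3%, which is more than in 90.6% of all genes. Of the 8 H3K27ac peaks in the Lck window 5 were its own, and the others lay nearest to Hdac1 and Fam167b. Cd3g followed with 12.2%, all of it from neighbours, and Tcf7 with 10.2%, from 7 peaks that were all its own. Cd3d had 9.30%, Zap70 had 5.38% and Cd4 had 0.466%. Cd3e, Cd8a, Gata3 and Bcl11b had none. The median of the 10 genes was 2.93%, and that of all genes was 1.87%. For Pax5, coverage ran from 0% to 4.23% with a median of 2.09%, beside 0.544% for all genes. For H3K4me3 it ran from 0% to 7.86% with a median of 1.73%, beside 1.60%. The highest values, at Lck for Pax5 and at Cd3g for H3K4me3, came from neighbours alone.

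The genes of the CD3 chains lie side by side on chromosome 9 and differed in their marks. Cd3d (chr9:44789876-44795135, plus strand) encodes the delta chain, and the nearest peak of any list was 3528 bp from its start. This was an H3K27ac peak of 2348 bp at its 3′ end (chr9:44793404-44795751) with a score of 83.8, which is rank 1323 of 69345 and above 98.1% of the list. Of this peak, 956 bp were exon, 776 bp intron and 616 bp sequence beyond the gene. A Pax5 peak (chr9:44794278-44795174, score 417, above 77.9% of its list) and an H3K4me3 region of 950 bp (chr9:44793876-44794825) lay inside it. Over annotated transcripts of every class, coding or not, the start nearest to the H3K27ac peak was that of Cd3d itself. It was the highest-scoring H3K27ac peak that any of the 10 genes had of its own.

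Cd3g (chr9:44777655-44788514, minus strand) encodes the gamma chain and is transcribed away from Cd3d, its neighbour. It had no peak in its gene body, and the nearest peak was 4890 bp from its start. Its window held 3 H3K27ac peaks, of which 1 was the Cd3d peak and 2, with scores of 114 and 10.6, lay at the start of Ube4a, a ubiquitin ligase gene, together with an H3K4me3 region of 1475 bp. Cd3e (chr9:44806826-44817673, minus strand) encodes the epsilon chain and was empty. The nearest peak of each list to it was that of Cd3d, and its H3K27ac peak ended 11075 bp from Cd3e, just outside the window. Among the 3 genes the lists met at 1 site, the 3′ end of Cd3d, and none of the genes had a mark at its start.

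The co-receptor genes had no peak or region in their gene bodies. Cd8a (chr6:71323421-71329165, plus strand), whose product recognises MHC class I, had its nearest peak or region of any list 60031 bp away. Cd4 (chr6:124814710-124838239, minus strand), whose product recognises MHC class II, had peaks of its own only upstream. A Pax5 peak (chr6:124847064-124847613, score 136, above 28.0% of its list) lay 8825 bp upstream of its 5′ start, and an H3K27ac peak of 203 bp with a score of 4.39 overlapped it. Only 3.58% of H3K27ac peaks scored lower. The 2 H3K4me3 regions in the Cd4 window were at Gpr162 (500 bp, across its start) and 550 bp from a start of Leprel2. Both neighbours lie downstream of Cd4.

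Lck was the only one of the 10 genes with H3K27ac at its starts. It has a proximal promoter, used in thymocytes, and a distal promoter, used more in mature T cells. Which annotated start belongs to which promoter was not examined. Lck (chr4:129225588-129250885, minus strand) has 3 annotated coding starts, of which 2 are 19 bp apart in the gene and 1 is at its 5′ end. An H3K27ac peak of 2770 bp (chr4:129233851-129236620) covered the internal starts with a score of 34.9, above 89.4% of the list. Around the 5′ start lay 3 smaller peaks within 1000 bp, with scores from 5.26 to 8.95, above 11.8% to 51.3% of the list. None covered this start, and the nearest was 82 bp from it. Another peak, 1409 bp upstream of the 5′ start, had a score of 12.5. H3K4me3 was not within 1000 bp of any coding start. A region of 1100 bp (chr4:129233261-129234360) lay 1256 bp downstream of the internal starts, where a non-coding Lck transcript with a retained intron is annotated to start, and a region of 175 bp made of 3 pieces lay 1976 bp upstream of the 5′ start. Lck had no Pax5 peak of its own. Of the 2 Pax5 peaks in its window, 1 was at Hdac1 (score 246), a histone deacetylase gene, and the other (score 155) lay 3209 bp upstream of Lck and 866 bp from Fam167b.

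Zap70 (chr1:36818695-36839663, plus strand) was marked inside the gene and not at its starts. An H3K27ac peak of 1923 bp (chr1:36822904-36824826, score 18.6, above 78.1% of the list) lay in an intron, 4209 bp from the 5′ start. It contained a Pax5 peak (chr1:36823020-36824104, score 239, above 56.5% of its list), also wholly intronic. H3K4me3 there was a region of 150 bp, of which bins covered 75 bp. Beyond the 3′ end lay a further H3K4me3 region of 150 bp, and an H3K27ac peak with a score of 5.26.

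The 3 transcription factor genes each had a different combination. Tcf7 (chr11:52065873-52096681, minus strand), which encodes TCF1, had an H3K4me3 region of 800 bp (chr11:52096021-52096820) across 3 of its 4 coding starts and 275 bp from the fourth. The nearest H3K27ac peak was 8103 bp from these starts. Its 7 H3K27ac peaks lay farther inside the gene, 6 of them wholly in introns, with scores from 5.26 to 14.5. The largest, of 2651 bp (chr11:52080683-52083333, score 14.5, above 72.1% of the list), contained a Pax5 peak of 1365 bp (chr11:52081388-52082752). This Pax5 peak had the highest score in any of the 10 windows, 424, above 78.5% of its list, and lay 12994 bp from the nearest Tcf7 start. The lincRNA gene Gm16953 starts inside the H3K27ac peak and 264 bp from the Pax5 peak.

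Gata3 (chr2:9778705-9811661, minus strand) had the widest H3K4me3 region of the 10 windows, 2975 bp (chr2:9798449-9801423), which is wider than 97.2% of the regions in the list. It covered the internal coding start, and the upstream coding start was 10238 bp away from it. The nearest H3K27ac peak was 157809 bp from the gene. A Pax5 peak (chr2:9801001-9801812) overlapped the H3K4me3 region, 774 bp upstream of the start, and was the single Pax5 peak within 1000 bp of a start in the 10 genes. Its score of 100 was low, since only 8.43% of Pax5 peaks scored lower.

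Bcl11b (chr12:109148613-109241812, minus strand) had neither histone mark. The nearest H3K27ac peak was 166496 bp from the gene and the nearest H3K4me3 region 174424 bp. A Pax5 peak of 723 bp (chr12:109207119-109207841) lay in an intron, 33783 bp from a start, with a score of 93.2 that exceeded 4.07% of the list. Gata3 and Bcl11b were the 2 genes with a Pax5 peak and no H3K27ac in the window.

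**Figure D3:**
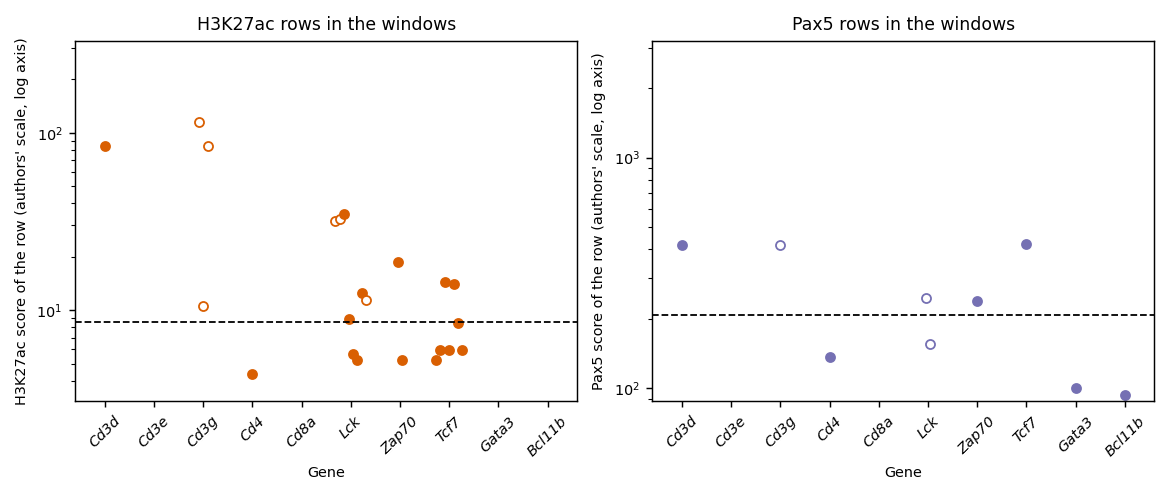
Scores of the H3K27ac peaks (left) and Pax5 peaks (right) in the windows of the 10 genes, on log axes that span each whole list, with dashed lines at the list medians. Filled points belong to the gene and open points lie nearest to a neighbour. The Cd3d peak stands highest among filled H3K27ac points at 83.8, and the Pax5 peaks of Gata3 and Bcl11b are near the floor of the list.

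The windows held 8 different Pax5 peaks, of which 6 overlapped an H3K27ac peak and 4 an H3K4me3 region by at least 1 bp. Over all Pax5 peaks, 79.3% overlapped H3K27ac and 61.0% overlapped H3K4me3. The 8 scores ran from 93.2 to 424 with a median of 197, beside 207 for the list, and 4 of 8 were above the list median. The 21 different H3K27ac peaks had a median score of 10.6, beside 8.52 for the list. For the 16 that belonged to the genes themselves the median was 7.18, and 7 of 16 were above the list median. Tcf7 held 7 of these 16 peaks and Lck held 5, so the median describes mostly those genes. Of 12 H3K4me3 regions, 7 overlapped H3K27ac, beside 79.7% of all regions, and the 5 that did not included those at the starts of Tcf7 and Gata3.

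The middle of the Pax5 peaks of Tcf7 and Zap70, which overlap H3K27ac, and of Gata3 and Bcl11b, which do not, is shown so that the sites can be compared. At Tcf7, Zap70, Gata3 and Bcl11b, 60 bases on each side of the middle of the peak are given. At Cd3d the middle lies in the 3′ untranslated region, and only a stretch of 27 bases near it is given. That stretch was cut to run from 1 motif match to the next, so its motif content cannot be compared with that of the others. All are from mm9, 5′ to 3′, and capitals mark a match on either strand to any of the 6 motifs named below.
Tcf7, chr11:52082010-52082130, plus strand: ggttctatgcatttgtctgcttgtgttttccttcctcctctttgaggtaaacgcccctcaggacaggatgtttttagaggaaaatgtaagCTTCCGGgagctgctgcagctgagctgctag
Zap70, chr1:36823502-36823622, plus strand: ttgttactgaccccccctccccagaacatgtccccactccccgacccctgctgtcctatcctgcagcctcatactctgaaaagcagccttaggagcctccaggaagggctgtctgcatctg
Cd3d, chr9:44794738-44794764, plus strand: CTTCCGGgattttgctgccttACCACA
Gata3, chr2:9801346-9801466, plus strand: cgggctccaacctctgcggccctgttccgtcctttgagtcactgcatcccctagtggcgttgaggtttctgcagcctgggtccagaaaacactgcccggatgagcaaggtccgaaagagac
Bcl11b, chr12:109207420-109207540, plus strand: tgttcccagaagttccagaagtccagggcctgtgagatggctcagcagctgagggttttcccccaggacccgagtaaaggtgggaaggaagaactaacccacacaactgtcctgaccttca

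Motifs were counted on both strands as exact letters, each on its own, so that matches of different motifs can share bases. GCGTGAC, the core of the Pax5 consensus, was found in none of the 6 Pax5 peaks that the genes had of their own, and in 1 of the 8, the peak at Hdac1. This held for whole peaks and for their middle 300 bp. Over all Pax5 peaks, 5.72% held GCGTGAC in their middle 300 bp, so its absence from 6 peaks is no departure from the list. The middle 300 bp of the Cd3d peak held TGTGGT (RUNX) at 2 places and CCGGAAG (ETS) at 1, and that of the Tcf7 peak held each at 1. Over all Pax5 peaks 19% held the RUNX and 10.3% the ETS motif there. The middle of the Cd4 peak held CAGGTG (E-box), found in 24.4% of all Pax5 peaks, as did those of the Zap70 and Fam167b peaks. Much of the 121 bases around the middle of the Cd4 peak was a simple repeat of ca and cgca units. AGATAA, a motif of GATA factors, was in the middle of 8.37% of all Pax5 peaks and of none of the 8. CTTTGAT, a motif of TCF and LEF factors, was in the middle of 2.39% and of none of the 8. In the 300 bp from 250 bp before to 50 bp after the 19 coding starts of the 10 genes, CAGGTG was at 9 starts, in Cd3d, Cd3e, Cd3g, Lck, Tcf7 and Zap70, beside 20.5% of 46028 starts of all genes. Nearby starts of a gene share bases there. GCGTGAC was at 1 start, in Zap70, beside 2.54% of all, and the RUNX, ETS, GATA and TCF motifs were at 2 starts each, beside 14.8%, 10.8%, 9.44% and 3.10%. A match of letters does not show binding.

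The starts also differed in CpG content, a property examined after the marks had been seen. The ratio of observed to expected CpG was taken over 500 bp on each side of a start, where CpG islands have a high ratio. Over all genes the median ratio was 0.742 at starts with H3K4me3 and 0.246 at starts without it. The Gata3 start with H3K4me3 had a ratio of 0.638 and its other start 0.481. At the 4 Tcf7 starts the ratio ran from 0.449 to 0.902. The Cd3, Cd4, Cd8a, Lck and Zap70 starts, none of which had H3K4me3 within 1000 bp, were all between 0.161 and 0.408. Bcl11b stood apart, with ratios of 0.788 and 0.805 at its 2 starts and no H3K4me3. Of all starts with a ratio of at least 0.6, 88.0% had H3K4me3, and of those below it 22.4%.

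**Figure D4:**
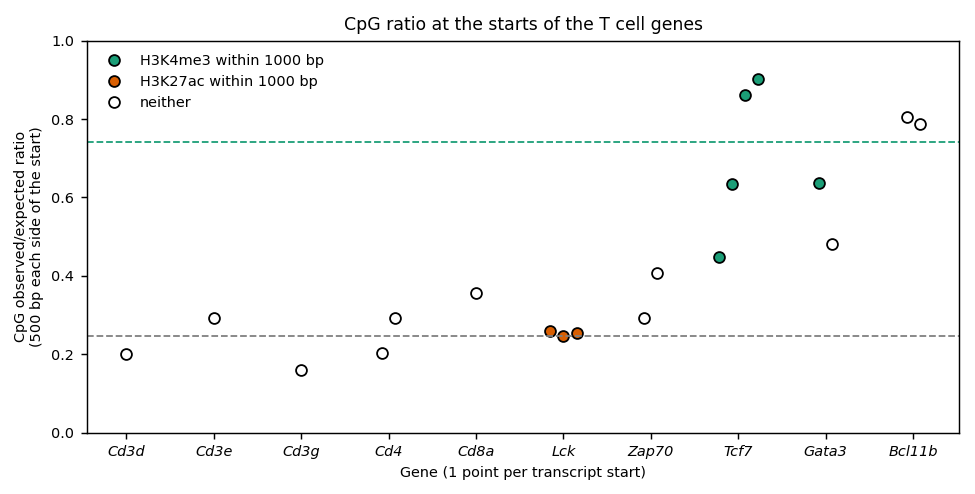
Ratio of observed to expected CpG over 500 bp on each side of each coding start of the 10 genes, coloured by the histone mark within 1000 bp, with dashed lines at the median of all starts with (green, 0.742) and without (grey, 0.246) H3K4me3. The Tcf7 and Gata3 starts with H3K4me3 lie at 0.449 or above, and the unmarked Bcl11b starts lie at 0.788 and 0.805.

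A list of 32 other T cell genes gave the setting, of which 31 were matched by symbol and Ptcra was not. In this list H3K27ac lay at a start in 13 genes (41.9%, beside 48.3% of all genes) and H3K4me3 in 14 (45.2%, beside 52.6%). Pax5 lay at a start in 11 (35.5%, beside 37.4%), and 7 genes (22.6%, beside 31.3%) had nothing in their window. Each share at a start was below that of all genes. The 9 genes of receptors and surface molecules had H3K27ac at the start in 4 (Cd2, Cd5, Cd6 and Cd28), Pax5 in 2 and H3K4me3 in 1, and Cd8b1, Icos and Thy1 were empty. Cd2, which B cell precursors also carry and which served to sort pre-B cells in the study's repertoire work, had the highest H3K27ac score at a start, 65.6. The 9 signalling genes had H3K27ac at the start in 3 (Lat, Lcp2 and Fyn), H3K4me3 in 3 and Pax5 in 3, and Lat, the adaptor phosphorylated by Zap70, had the highest Pax5 score at a start, 852. Themis, Trat1 and Sh2d1a were empty. Of the 13 transcription factors and Notch pathway genes, 10 had H3K4me3, 6 had H3K27ac and 6 had Pax5 at a start. Notch1, its target Hes1, Zbtb7b, Runx3, Lef1 and Satb1 had all of the lists there.

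**Figure D5:**
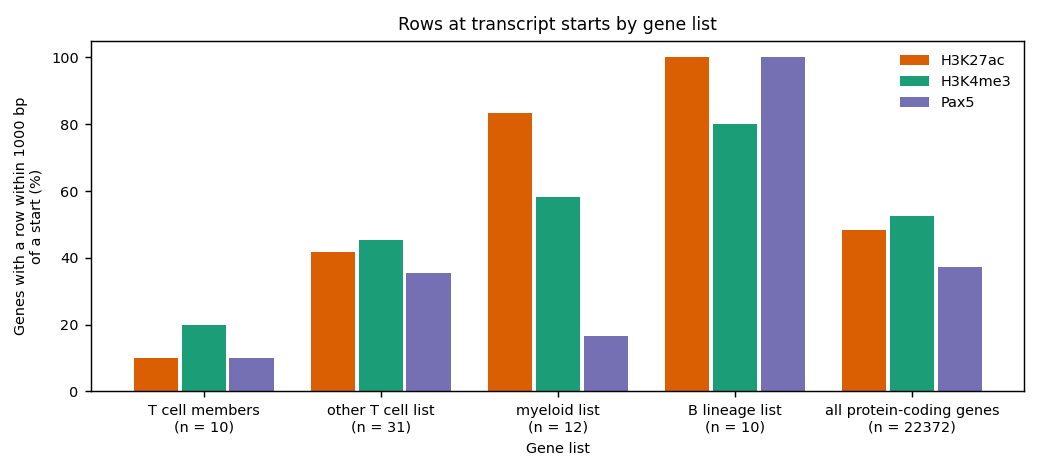
Percent of genes with an H3K27ac peak, an H3K4me3 region or a Pax5 peak within 1000 bp of a coding start in the 10 T cell genes (T cell members), 31 other T cell genes, 12 myeloid genes, 10 B lineage genes and all 22372 protein-coding genes. The bars of the T cell members are at 10%, 20% and 10%, and those of the B lineage genes are at 100%, 80% and 100%.

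The combinations at the starts can be set against those of all genes. The absence of all lists from the starts, seen in 7 of the 10 genes, was seen in 13 of the 31 other T cell genes and in 43.9% of all genes. H3K27ac alone, as at Lck, was found at Cd28 and Cd6 and in 2.60% of all genes. H3K4me3 alone, as at Tcf7, was found at Dtx1, Tox, Tbx21 and Eomes and in 5.12% of all genes. In that order H3K4me3 there was 950, 1975, 600 and 50 bp wide, beside 800 bp at Tcf7. H3K4me3 with Pax5 and without H3K27ac, as at Gata3, was found at Prkcq and in 2.22% of all genes. All of the lists together, found at the starts of 34.3% of all genes, 8 of the 31 other T cell genes and 8 of the 10 B lineage genes, were at none of the 10 T cell genes.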

How the data were processed

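Libraries were sequenced on an Illumina HiSeq2000 after 18 cycles of PCR. The submitters' processing notes name Bowtie 0.12.9, MACS 1.4.2 and mm9. For ChIP-seq reads the paper's methods name another version of Bowtie. They state that duplicate reads and adapters were removed and reads with up to 3 best positions were kept. Whether these steps were used for the deposited lists is not known. Peak settings for these lists are not given in the sources used here. The deposited H3K27ac and Pax5 lists give a score per peak, and the Pax5 list was called by the authors against pre-B input. The deposited H3K4me3 list gives the positions of 25 bp bins as other values, with no score or signal. NCBIM37 is mm9.

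The members and gene lists were chosen with earlier results of these data known. A peak belonged to a gene when it touched the gene body or its nearest protein-coding start was that gene's. An overlap of 1 bp counted. Named genes were the 10 members, the genes whose start was nearest to a peak in their windows, and of each comparison list counts with the highest-scoring gene. Other genes of the lists were named after their values were seen, and some are not reported here. All values are descriptions, and no test was made. Overlap counting was tested on simulated intervals. The alternatives were other windows, overlap by midpoint, the higher-scoring 50% of a list, touching bins only and the 5′ end of the gene only. Python 3.11.15, numpy 2.4.6 and matplotlib 3.10.9 were used.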

Additional observations from a re-analysis of the deposited data

How the results depend on the processing

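Of 42 counts under an alternative, 33 were within 1.5 times the reported one and 9 were not. All were counts among the members, and the shares of all genes were taken in the reported setting only. The counts below therefore cannot be compared with those shares, and whether they depart from all genes was not tested. With the gene body alone, 5 genes had a Pax5 peak in place of 8, as many as had H3K4me3, and 4 genes (Cd3e, Cd3g, Cd4 and Cd8a) were without anything in place of 2, while with 50 kb on each side only 1, Cd8a, was. With the higher-scoring 50% of the scored lists, 5 genes had a Pax5 peak in the window, as many as had H3K27ac, those of Cd4, Gata3 and Bcl11b being lost. The single Pax5 peak at a start, that of Gata3, was counted at 0 genes with 500 bp around the starts, by the midpoint, in the higher-scoring 50% and with the 5′ end of the gene model only. With that 5′ end, H3K4me3 was at the start of 1 gene, Tcf7, in place of 2, because the Gata3 region covers the internal start. With 2500 bp around the starts, H3K4me3 was at a start of 3 genes, Lck being added, so Lck no longer had H3K27ac alone. H3K27ac stayed at a start of Lck alone, and Cd3d, Cd3e, Cd3g, Cd4, Cd8a, Zap70 and Bcl11b stayed without a histone mark at a start, under every alternative run. With 1 library a list there were no replicates to pair or to leave out. Depth is unknown, so an absent peak says only that none was listed.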
